A study of Mus musculus with 9 samples.

Results

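The genes of the major histocompatibility complex (MHC) and of antigen presentation were followed in the livers of male CD1 mice, comparing those that received AAV8-STAT5ca with those that received vehicle. The members were the rows of the deposited table whose symbol starts with H2-, plus B2m, Tap1, Tap2, Tapbp, Psmb8, Psmb9, Psmb10, Ciita, Nlrc5 and Cd74. This gave 52 of 27434 named genes. Of these, 32 are class I genes (B2m, their shared light chain, included), 10 are class II genes, 6 belong to peptide loading and the immunoproteasome, and 3 are the regulators Nlrc5 and Ciita and the invariant chain Cd74. The remaining row, H2-Ke6, carries the prefix only for its place in the K region and encodes an estradiol 17-beta-dehydrogenase.

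The STAT5ca group had 5 libraries, 2 taken at 4 weeks and 3 at 6 weeks after tail vein injection of 2e11 genome copies per mouse of AAV8, a hepatocyte-directed adeno-associated virus, encoding a constitutively active STAT5b. The control group had 4 libraries, 2 at each time, from mice given vehicle and no virus. Differences due to the virus and differences due to STAT5ca therefore cannot be told apart here, and "STAT5ca livers" names the group only. At 4 weeks the mice had an age of 11 to 12 weeks, and at 6 weeks one of 13 to 14 weeks. CD1 is an outbred stock, and the promoter that drives STAT5ca is not given in the sources used here. The libraries held polyadenylated RNA of nuclei from frozen liver. The authors deposited 1 value per gene and group in RPKM, which scales reads by exon length and library depth, together with a fold change with a sign and an adjusted p under a heading that names edgeR. Values of single libraries were therefore not used here except where stated, the spread between libraries enters only through the adjusted p, and both times are pooled. The library totals behind the values, read from the smallest steps of the table, were 11823873 to 14863490 reads for STAT5ca and 9489045 to 13144589 reads for control.

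Class I molecules show peptides made in the cytosol to CD8 T cells. The proteasome cuts the peptides, the TAP transporter moves them into the endoplasmic reticulum, and tapasin helps load them onto a heavy chain bound to beta-2 microglobulin. Class II molecules show peptides from the endocytic route to CD4 T cells and are found mainly on B cells, dendritic cells and macrophages, while hepatocytes normally make class I and little class II. Interferon gamma raises both pathways, class I through the activator NLRC5 and class II through CIITA.

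With AAV8-STAT5ca 18 of the 52 members were higher and 0 were lower in the authors' deposited table, by a threshold of 0.05 on its adjusted p. Over all named genes, 3.87% were higher and 1.92% lower by the same rule. Class I gave 10 higher of 32, class II 4 of 10, loading and immunoproteasome 4 of 6, and the regulators with Cd74 0 of 3. Among members with a mean of at least 1 RPKM over the groups, 18 of 37 were higher, against 6.09% of named genes higher and 3.95% lower at that level. By stricter rules, 14 of the 52 members passed an adjusted p of 0.01 (2.73% of named genes higher). With 0.05 and a fold of at least 2, 15 passed (2.97%). By a looser rule, p was adjusted anew over the features with a mean of at least 0.1 RPKM. Then 20 of the 41 members at that level passed, against 9.34% of named genes at that level called higher. With a mean of at least 0.1 RPKM, the median log2 fold was 1.03 over 21 class I members, 0.71 over 10 class II members and 0.84 over the 6 loading and immunoproteasome members, beside 0.03 over 14713 named genes. The class I median lay 0.31 above that of class II. This difference has no test, and it ranged from 0.11 to 0.45 with other processing. Other summaries had the opposite order. The share of members called was 31.2% for class I and 40.0% for class II. The ratio of RPKM summed over all rows, STAT5ca over control, was 1.70 for class I and 1.90 for class II.

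**Figure D1:**
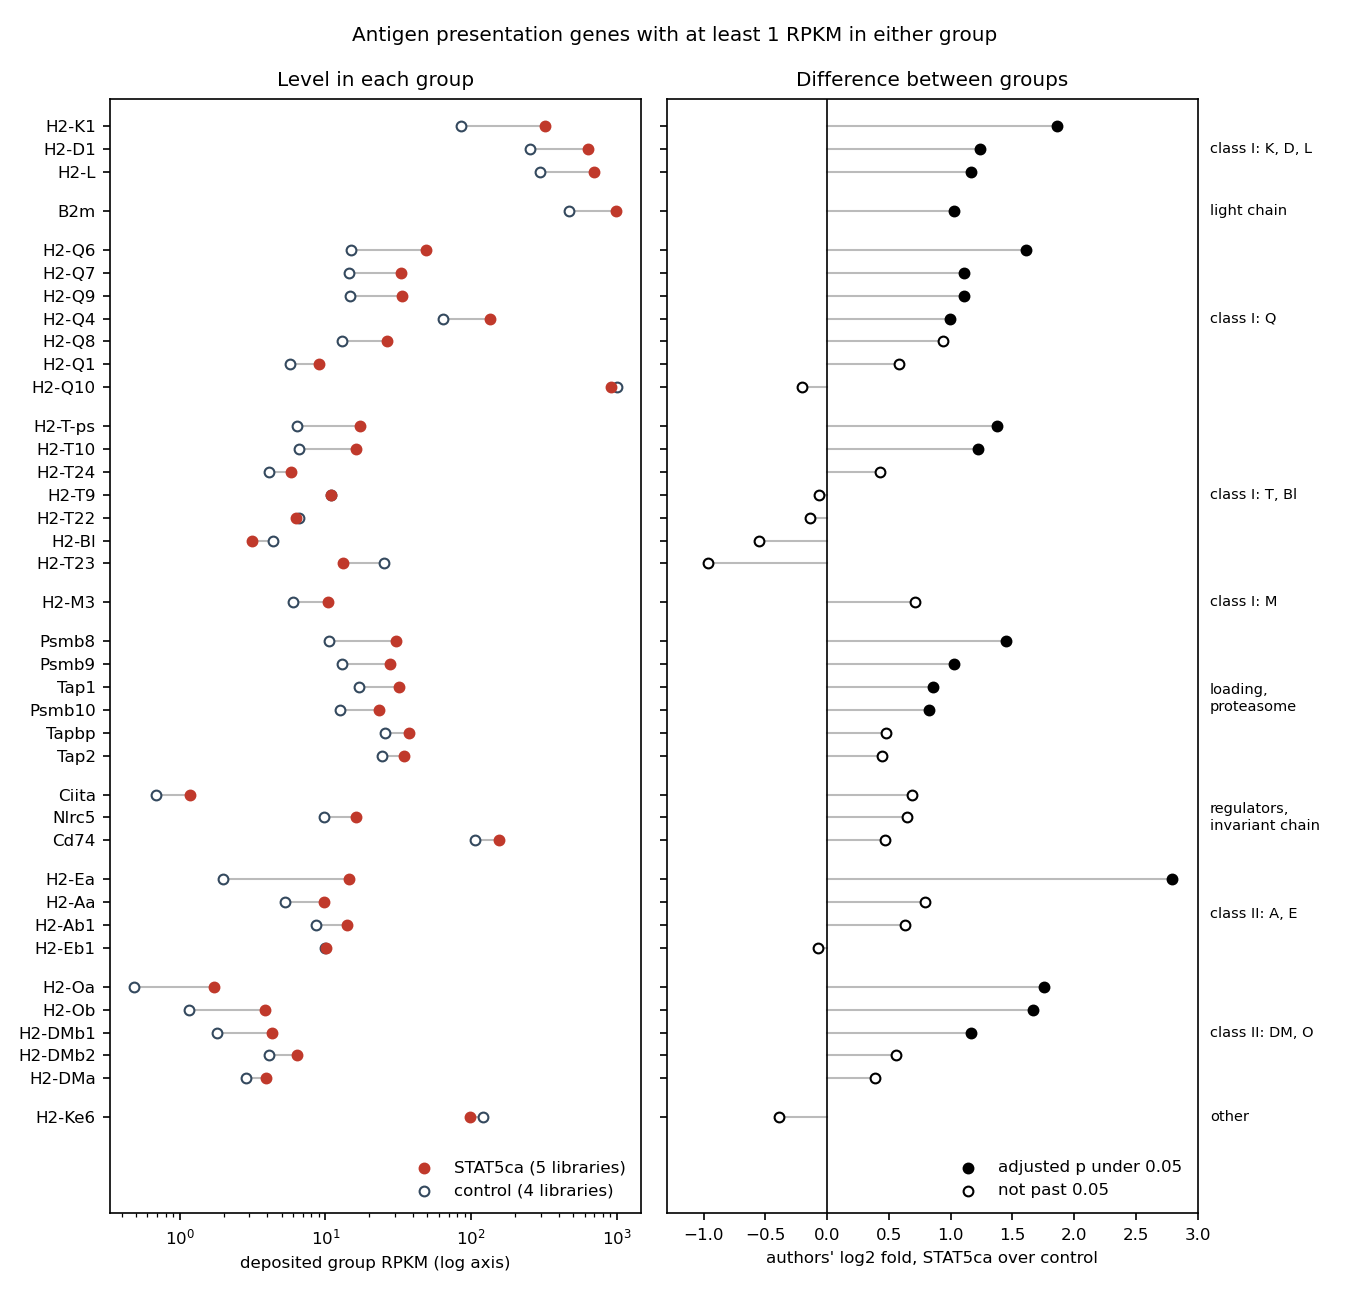
The left panel plots the deposited RPKM of the 38 members with at least 1 RPKM in either group, on a log axis (filled, STAT5ca; open, control; 1 value per group). The right panel plots the authors' log2 fold of STAT5ca over control, filled where the adjusted p was under 0.05. H2-Ea has the largest fold (log2 2.79) and H2-T23 the lowest (log2 -0.97).

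The classical class I genes, which present peptides on nearly all cells, rose. H2-K1 averaged 320.6 RPKM in STAT5ca livers and 84.8 RPKM in control livers (authors' deposited table, 3.63-fold higher with adjusted p = 0.00524). H2-D1 stood at 629 RPKM in STAT5ca and 255 RPKM in control livers (authors' deposited table, 2.36-fold higher with adjusted p = 0.00565). H2-L stood at 693 and 296 RPKM in STAT5ca and control livers (authors' deposited table, 2.24-fold higher with adjusted p = 0.011). H2-L is not independent of H2-D1, because 99.6% of the bases counted for H2-L also belong to the H2-D1 row. The light chain gene B2m, at chromosome 2 (121973424 to 121978818, mm9), averaged 985 RPKM in STAT5ca and 466 RPKM in control livers (authors' deposited table, 2.04-fold higher with adjusted p = 9.99e-04). After H2-Q10, described next, the light chain and the D and L rows had the highest levels of all members in control livers.

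The Q genes, nonclassical class I genes of the Qa region, split between a single abundant liver gene and the rest. H2-Q10 encodes a class I heavy chain that hepatocytes secrete into serum. At 913 RPKM in STAT5ca and 1002 RPKM in control livers it ranked 25th among named genes in STAT5ca and 26th in control livers, and it did not pass the test (authors' deposited table, 1.15-fold lower with adjusted p = 1). H2-Q4 stood at 135 RPKM in STAT5ca and 64.2 RPKM in control livers (authors' deposited table, 1.99-fold higher with adjusted p = 9.85e-05). H2-Q6 averaged 48.7 RPKM in STAT5ca and 15.0 RPKM in control livers (authors' deposited table, 3.06-fold higher with adjusted p = 7.91e-04). H2-Q7 and H2-Q9, which belong to the genes of the Qa-2 antigen, each showed a 2.15-fold rise (adjusted p = 0.0283, authors' deposited table). H2-Q7 averaged 33.0 RPKM in STAT5ca and 14.5 RPKM in control livers, and H2-Q9 33.3 RPKM in STAT5ca and 14.6 RPKM in control livers. They are a single measurement, since all 1514 bases of H2-Q9 lie in H2-Q7 and the reads implied by RPKM and length have a ratio of 1.0000 in both groups. H2-Q8 shares 99.7% of its bases with H2-Q6 and, at 26.5 RPKM in STAT5ca and 13.1 RPKM in control livers, did not pass (authors' deposited table, 1.92-fold higher with adjusted p = 0.354). H2-Q1 stood at 9.01 RPKM in STAT5ca and 5.73 RPKM in control livers, also without passing (adjusted p = 0.666, authors' deposited table).

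Counting each locus once, the RPKM of the 27 class I heavy chain rows summed to 2162 in STAT5ca and 1500 in control livers, a ratio of 1.44. Without H2-Q10 the sums were 1249 and 499 RPKM in STAT5ca and control livers, a ratio of 2.50. H2-Q10 thus made up 42.2% of the summed heavy chain RPKM in STAT5ca livers and 66.8% in control livers. The heavy chain sum was 2.19 times the B2m level in STAT5ca and 3.22 times in control livers. These sums have no replicate error.

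Among class I genes, reads per library were sought for H2-Q2 only, and only in the control group. The control value of H2-Q2 matched a single set of whole reads over its 2024 bases. These were 2, 9, 3 and 14 reads in the 4 control libraries in order of increasing depth. This corresponds to 0.104, 0.413, 0.122 and 0.526 RPKM, or 0.291 ± 0.211 RPKM (SD, n = 4). Sampling error is large at such counts, and the libraries are known only by their order of depth, not by sample or time. In STAT5ca livers H2-Q2 averaged 0.965 RPKM, which is between 115 and 146 reads over the 5 libraries, and the difference did not pass (authors' deposited table, 3.08-fold higher with adjusted p = 0.226).

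In the T region, another nonclassical group, 2 of 8 genes rose. H2-T10, a ligand of gamma-delta T cells, averaged 16.1 RPKM in STAT5ca and 6.58 RPKM in control livers (authors' deposited table, 2.34-fold higher with adjusted p = 1.81e-05). H2-T-ps, named as a pseudogene, averaged 17.3 RPKM in STAT5ca and 6.34 RPKM in control livers (authors' deposited table, 2.60-fold higher with adjusted p = 8.80e-07). No other T region gene passed. H2-T22, the close relative of H2-T10, stood at 6.27 RPKM in STAT5ca and 6.60 RPKM in control livers (adjusted p = 1), and H2-T9, whose bases all lie in the H2-T22 row, at 10.9 RPKM in both (adjusted p = 1, authors' deposited table). H2-T24 was at 5.78 RPKM in STAT5ca and 4.09 RPKM in control livers (adjusted p = 1, authors' deposited table). H2-T23, which encodes Qa-1, the ligand of the inhibitory receptor CD94/NKG2A, stood at 13.3 RPKM in STAT5ca and 25.1 RPKM in control livers (authors' deposited table, 1.95-fold lower with adjusted p = 0.656). H2-Bl stood at 3.14 and 4.38 RPKM in STAT5ca and control livers (adjusted p = 0.881, authors' deposited table).

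Of the 12 M genes, 0 passed by the authors' adjusted p headed edgeR, and H2-M3 had an unadjusted p of at most 0.00374, recovered from the adjusted one. H2-M3, which presents N-formylated bacterial peptides, averaged 10.4 RPKM in STAT5ca and 6.01 RPKM in control livers (authors' deposited table, 1.64-fold higher with adjusted p = 0.0826, and 0.0302 when p was adjusted again over features with a mean of at least 0.1 RPKM). H2-M2 was at 0.517 RPKM in STAT5ca and 0.174 RPKM in control livers (adjusted p = 0.502, authors' deposited table). The remaining 10 M genes and H2-T3 had a mean under 0.1 RPKM, with at most 0.0394 RPKM in STAT5ca and 0.0309 RPKM in control livers. Of these 11 genes, 7 were listed at 0 in both groups.

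Class I and class II genes differ between mouse strains more than almost any other genes, and the reads were counted on mm9, a genome of a single inbred strain. The sources used here do not give the H2 alleles of these outbred mice, and what the alleles contribute to the values of single H2 genes was not tested. Many of these genes are near copies of each other, so how the counting placed shared reads makes the values of single Q and T genes uncertain.

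The promoters of the members that the results turn on are shown because the class I genes H2-K1, H2-Q4 and H2-Q10 have related promoters but different levels and folds, and because Psmb9 and Tap1 share theirs. The sequences are RefSeq's on build GRCm38.p6, and 38 of the 52 members matched by symbol. Each runs 5′ to 3′ on the gene's strand and ends at the base before the annotated start. They are H2-K1 (chr17:34000334-34000583, minus strand), H2-Q4 (chr17:35379367-35379616, plus strand), H2-Q10 (chr17:35469839-35470088, plus strand), B2m (chr2:122147437-122147686, plus strand) and the class II gene H2-Ob (chr17:34238655-34238904, plus strand). The last line is the stretch of 225 bases between the start of Psmb9 on the minus strand and the start of Tap1 on the plus strand (chr17:34187331-34187555). Capitals mark CCAAT or its complement ATTGG, the core of the Y box that class I and class II promoters share, and GAAA followed after any 2 bases by GAAA, or its complement, a core of the interferon-stimulated response element.
H2-K1: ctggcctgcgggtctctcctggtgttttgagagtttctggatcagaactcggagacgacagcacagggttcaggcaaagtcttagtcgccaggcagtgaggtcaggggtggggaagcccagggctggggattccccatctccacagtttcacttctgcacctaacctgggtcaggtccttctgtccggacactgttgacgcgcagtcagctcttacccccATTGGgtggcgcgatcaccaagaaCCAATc
H2-Q4: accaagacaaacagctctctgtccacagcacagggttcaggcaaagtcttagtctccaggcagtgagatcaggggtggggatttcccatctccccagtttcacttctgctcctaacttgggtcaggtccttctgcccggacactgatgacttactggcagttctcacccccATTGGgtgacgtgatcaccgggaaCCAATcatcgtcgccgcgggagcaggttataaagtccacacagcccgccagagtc
H2-Q10: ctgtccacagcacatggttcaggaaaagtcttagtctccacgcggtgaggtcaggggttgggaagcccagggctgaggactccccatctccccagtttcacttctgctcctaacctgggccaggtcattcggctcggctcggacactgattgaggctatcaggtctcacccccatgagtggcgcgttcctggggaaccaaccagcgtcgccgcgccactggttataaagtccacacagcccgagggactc
B2m: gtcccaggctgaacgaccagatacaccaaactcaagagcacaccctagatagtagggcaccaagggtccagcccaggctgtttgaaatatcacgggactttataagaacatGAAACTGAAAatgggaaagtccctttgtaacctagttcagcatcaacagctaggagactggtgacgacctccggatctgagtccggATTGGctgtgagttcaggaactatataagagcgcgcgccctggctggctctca
H2-Ob: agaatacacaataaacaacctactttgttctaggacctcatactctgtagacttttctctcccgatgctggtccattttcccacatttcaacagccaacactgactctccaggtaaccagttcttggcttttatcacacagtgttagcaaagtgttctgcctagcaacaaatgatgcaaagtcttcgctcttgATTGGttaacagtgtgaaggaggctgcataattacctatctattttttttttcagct
Psmb9 to Tap1: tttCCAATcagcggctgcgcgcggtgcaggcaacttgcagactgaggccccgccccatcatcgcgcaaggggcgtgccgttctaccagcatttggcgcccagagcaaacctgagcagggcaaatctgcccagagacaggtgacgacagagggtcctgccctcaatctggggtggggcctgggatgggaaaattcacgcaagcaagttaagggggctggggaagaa

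CCAAT was found, on either strand of windows running from 250 bases before to 50 bases after the start, in 37.4% of all 32851 windows and in 35 of 41 member windows. Of the class I genes with a window and a mean of at least 0.1 RPKM, H2-Q10 was the only one with no CCAAT. It was missing also in 2 faint class I genes, H2-M5 and H2-T3, and in Psmb8 and Psmb10, both of which rose. With gaps left out, the H2-Q10 window matched that of H2-K1 at 199 of 231 aligned bases (86.1%). It matched that of H2-Q4 at 231 of 278 (83.1%). The H2-K1 window compared was that of another annotated start than the printed one. The other class I windows compared with H2-Q10 ranged from 69.6% (H2-Q2) to 87.3% (H2-D1). The GAAA pair was found in 3.44% of all windows and in those of B2m, H2-T22 and H2-T23, of which B2m rose. TTCNNNGAA, the core of STAT elements, was found in 8.30% of all windows and in those of Psmb8, H2-DMb2, H2-M3 and H2-M11, of which Psmb8 rose. The motif CCAAT overlaps neither of the other motifs in the printed stretches. A match describes these letters only, and a missing match does not show that an element is absent. The printed H2-K1, H2-Q4 and H2-Q10 stretches all hold agtttcacttct, which the strict GAAA pair does not match. Looser forms of the interferon-stimulated response element were not searched.

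The machinery that makes and loads class I peptides rose in part. Psmb8, Psmb9 and Psmb10 encode the catalytic subunits of the immunoproteasome. Psmb8 averaged 30.4 RPKM in STAT5ca and 10.6 RPKM in control livers (authors' deposited table, 2.72-fold higher with adjusted p = 7.32e-10), the lowest p of all members. Psmb9 averaged 27.8 RPKM in STAT5ca and 13.0 RPKM in control livers (authors' deposited table, 2.04-fold higher with adjusted p = 0.0105). Psmb10, on chromosome 8, averaged 23.3 RPKM in STAT5ca and 12.5 RPKM in control livers (authors' deposited table, 1.77-fold higher with adjusted p = 0.00198). Their counterparts in the standard proteasome, Psmb5, Psmb6 and Psmb7, did not pass (1.23-fold, 1.12-fold and 1.26-fold higher in the authors' deposited table). The ratio of RPKM of Psmb8 to Psmb5 was 1.87 in STAT5ca and 0.845 in control livers, that of Psmb9 to Psmb6 0.745 in STAT5ca and 0.410 in control livers, and that of Psmb10 to Psmb7 0.938 in STAT5ca and 0.671 in control livers. Differences between the subunits were not tested.

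Tap1, which forms the peptide transporter with Tap2, averaged 32.1 RPKM in STAT5ca and 16.9 RPKM in control livers (authors' deposited table, 1.81-fold higher with adjusted p = 0.00233). Its row starts 226 bases from the end of the Psmb9 row in mm9. Tap2 stood at 34.8 RPKM in STAT5ca and 24.3 RPKM in control livers (authors' deposited table, 1.36-fold higher with adjusted p = 0.253). Tapbp, which encodes tapasin, stood at 37.7 RPKM in STAT5ca and 25.8 RPKM in control livers (authors' deposited table, 1.39-fold higher with adjusted p = 0.247). The half-transporter Tap1 and its partner Tap2 thus lay on different sides of the threshold, which does not show that they differed.

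Other genes of the class I route did not pass. Of 9 genes of chaperones, trimming and the proteasome activator (Calr, Canx, Pdia3, Hspa5, Tapbpl, Erap1, Psme1, Psme2 and Psme3), 0 rose and 0 fell, with a median log2 fold of 0.08. At an unadjusted p under 0.05, recovered from the authors' adjusted p as an upper bound, at least 3 of the 9 counted. By the same rule 27.8% of named genes with a mean of at least 0.1 RPKM counted. Erap1, which trims peptides, stood at 9.49 RPKM in STAT5ca and 6.44 RPKM in control livers (authors' deposited table, 1.41-fold higher with adjusted p = 0.209). Of 8 class I-like genes such as Cd1d1, which presents lipids, and Hfe and Fcgrt, 0 rose and 0 fell by the authors' adjusted p headed edgeR, and the recovered upper bound of the unadjusted p was under 0.05 for 0 of them. Cd1d1 was at 247 RPKM in STAT5ca and 246 RPKM in control livers (adjusted p = 1, authors' deposited table).

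The regulators did not pass. Nlrc5, the activator of class I genes, averaged 16.2 RPKM in STAT5ca and 9.80 RPKM in control livers (authors' deposited table, 1.57-fold higher with adjusted p = 0.116, and 0.043 when p was adjusted again). Ciita, the activator of class II genes, stood at 1.17 RPKM in STAT5ca and 0.688 RPKM in control livers (authors' deposited table, 1.61-fold higher with adjusted p = 0.272). Cd74, the invariant chain that guards the class II groove, stood at 154 RPKM in STAT5ca and 107 RPKM in control livers (authors' deposited table, 1.38-fold higher with adjusted p = 0.808). By the authors' adjusted p headed edgeR 0 of the 3 thus passed, and by the recovered unadjusted p under 0.05 at least 2 did, Nlrc5 and Ciita. The latter rule held for 27.8% of named genes with a mean of at least 0.1 RPKM.

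Of the classical class II genes, 1 of 5 rose. The A and E chains are the classical heterodimers that hold the peptide. H2-Aa stood at 9.72 RPKM in STAT5ca and 5.27 RPKM in control livers (authors' deposited table, 1.74-fold higher with adjusted p = 0.950). H2-Ab1, its partner, stood at 14.1 RPKM in STAT5ca and 8.61 RPKM in control livers (authors' deposited table, 1.55-fold higher with adjusted p = 0.459). H2-Eb1 was at 10.1 RPKM in STAT5ca and 9.86 RPKM in control livers (adjusted p = 1, authors' deposited table). The alpha chain of the same heterodimer, H2-Ea, averaged 14.6 RPKM in STAT5ca and 1.99 RPKM in control livers (authors' deposited table, 6.92-fold higher with adjusted p = 0.00533). H2-Ea thus had 1.44 times the level of H2-Eb1 in STAT5ca livers and 0.202 times in control livers. Some strains carry a deletion at the start of H2-Ea and make no E alpha chain, and which alleles these mice carried is not given in the sources used here. H2-Eb2 was faint, at 0.147 RPKM in STAT5ca and 0.0968 RPKM in control livers (adjusted p = 1, authors' deposited table).

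The DM and O genes encode proteins that edit class II peptides and do not present them, and 3 of 5 rose. H2-Ob, whose product with that of H2-Oa inhibits the DM editor and is known from B cells and thymus, averaged 3.86 RPKM in STAT5ca and 1.15 RPKM in control livers (authors' deposited table, 3.17-fold higher with adjusted p = 4.73e-05). H2-Oa averaged 1.71 RPKM in STAT5ca and 0.489 RPKM in control livers (authors' deposited table, 3.38-fold higher with adjusted p = 0.00556). H2-DMb1, a beta chain of the DM editor, averaged 4.33 RPKM in STAT5ca and 1.81 RPKM in control livers (authors' deposited table, 2.24-fold higher with adjusted p = 0.00173). H2-DMb2 was at 6.37 RPKM in STAT5ca and 4.12 RPKM in control livers (adjusted p = 0.629, authors' deposited table). H2-DMa was at 3.92 RPKM in STAT5ca and 2.85 RPKM in control livers (adjusted p = 1, authors' deposited table). The 4 class II genes that rose were thus H2-Ea, H2-Oa, H2-Ob and H2-DMb1, while the A chains and H2-Eb1 did not pass.

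Among other class II route genes, the cathepsin gene Ctss, whose product trims the invariant chain, averaged 54.3 RPKM in STAT5ca and 20.1 RPKM in control livers (authors' deposited table, 2.58-fold higher with adjusted p = 3.30e-04). It was the 1 gene of 6 for processing that rose (Ctsb, Ctsd, Ctsl, Ifi30 and Lgmn did not pass). Over all named genes, 3.87% were higher by the same rule. The transcription factors of the class II promoter (Rfx5, Rfxank, Rfxap, Creb1, Nfya, Nfyb and Nfyc) gave 0 risen and 0 fallen of 7. At least 1 was at an unadjusted p under 0.05, beside 27.8% of named genes with a mean of at least 0.1 RPKM. Of 6 surface partners 3 rose and 0 fell, the costimulators Cd86 (2.63-fold higher, adjusted p = 1.08e-04) and Cd40 (2.46-fold higher, adjusted p = 0.00888) and the ubiquitin ligase gene Marchf1, which limits class II at the surface (authors' deposited table, 2.40-fold higher with adjusted p = 0.0244).

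Some markers of the cells that carry class II also rose. Of 10 B cell markers 4 rose and 0 fell, with a median log2 fold of 1.04 and a summed level of 45.0 RPKM in STAT5ca and 20.7 RPKM in control livers. Among them was Cd79b, a chain of the B cell receptor complex (authors' deposited table, 2.06-fold higher with adjusted p = 0.00882). Of 12 dendritic cell markers 6 rose and 0 fell, with a median log2 fold of 1.07. Their sums were 19.3 RPKM in STAT5ca and 10.3 RPKM in control livers. Of the 6 that rose, only 2 had a mean of at least 1 RPKM over the groups. The faint ones included Xcr1, at 0.188 RPKM in STAT5ca and 0.0194 RPKM in control livers. Over all named genes, 3.87% were higher by the authors' adjusted p. Itgax, which encodes CD11c, averaged 1.49 RPKM in STAT5ca and 0.466 RPKM in control livers (adjusted p = 8.95e-05, authors' deposited table). Of 12 Kupffer cell and macrophage markers 2 rose and 0 fell (median log2 fold 0.66, sums of 605 RPKM in STAT5ca and 345 RPKM in control livers), namely Cd5l and Clec4f. Of 12 T and NK cell markers 0 rose and 0 fell by the authors' adjusted p headed edgeR (median log2 fold 0.61, sums of 18.9 RPKM in STAT5ca and 12.0 RPKM in control livers). The recovered unadjusted p was under 0.05 for at least 10 of 10 B cell, 8 of 12 dendritic cell, 10 of 12 Kupffer cell and macrophage, and 4 of 12 T and NK cell markers, beside 27.8% of named genes with a mean of at least 0.1 RPKM. The log2 fold was above 0 for 10 of 10, 11 of 12, 12 of 12 and 10 of 12 markers in the same order. None of these markers was listed at 0 in either group, and their part in the class II values was not tested. In whole liver nuclei, more cells of a type and more RNA per cell cannot be told apart.

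Markers of sinusoidal endothelial and stellate cells mostly had lower levels in STAT5ca livers, and 4 of the 14 passed, against 1.92% of all named genes called lower. Of 8 sinusoidal endothelial markers 0 rose and 2 fell, Stab1 and Clec4g, and 7 had a log2 fold below 0 (median -0.49, sums of 297 RPKM in STAT5ca and 405 RPKM in control livers). Of 6 stellate cell markers 0 rose and 2 fell, Reln and Hgf, and 6 had a log2 fold below 0 (median -0.53, sums of 49.5 RPKM in STAT5ca and 72.3 RPKM in control livers). The recovered unadjusted p was under 0.05 for at least 5 of the 8 and 4 of the 6, beside 27.8% of named genes at 0.1 RPKM or more. Cholangiocyte markers gave 1 risen and 1 fallen of 6 (median 0.19), and hepatocyte markers 1 risen and 0 fallen of 10 (median 0.00). The cholangiocyte marker that rose was Spp1, the osteopontin gene that other cells also make (authors' deposited table, 5.62-fold higher with adjusted p = 0.00116), and the one that fell was Sox9 (authors' deposited table, 2.12-fold lower with adjusted p = 0.0113). The hepatocyte marker that rose was Alb, the albumin gene (authors' deposited table, 3.13-fold higher with adjusted p = 1.51e-04). The hepatocyte markers summed to 22477 RPKM in STAT5ca and 12497 RPKM in control livers, and without Alb the other 9 summed to 7811 RPKM in STAT5ca and 7934 RPKM in control livers, so hepatocyte markers were abundant in both groups.

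Other families that interferons induce had larger median folds, a difference that was not tested. Of 11 guanylate-binding protein genes 9 rose (median log2 fold 2.11), of 7 immunity-related GTPase genes 6 rose (median 1.81 over the 6 with a mean of at least 0.1 RPKM), and of 12 Oas genes 8 rose (median 2.62 over 8). The largest rise among members, that of H2-Ea at log2 2.79, was below those of Gbp10 (11.8-fold) and Oas1g (16.5-fold) in the authors' deposited table. Interferon signalling was followed in 14 genes, of which 4 rose and 0 fell. For these lists and the families above, the share of all named genes called higher was 3.87%. The interferon signalling genes that rose included Irf9 (2.05-fold higher, adjusted p = 6.39e-05), Irf8 (2.02-fold higher, adjusted p = 9.86e-05) and Socs1 (2.09-fold higher, adjusted p = 0.00457), all in the authors' deposited table. Irf1, which drives Tap1, Psmb9 and class I genes in many cells, was at 29.5 RPKM in STAT5ca and 30.4 RPKM in control livers (adjusted p = 1, authors' deposited table). Ifng itself was faint, at 0.236 RPKM in STAT5ca and 0.0341 RPKM in control livers (adjusted p = 0.201, authors' deposited table).

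**Figure D2:**
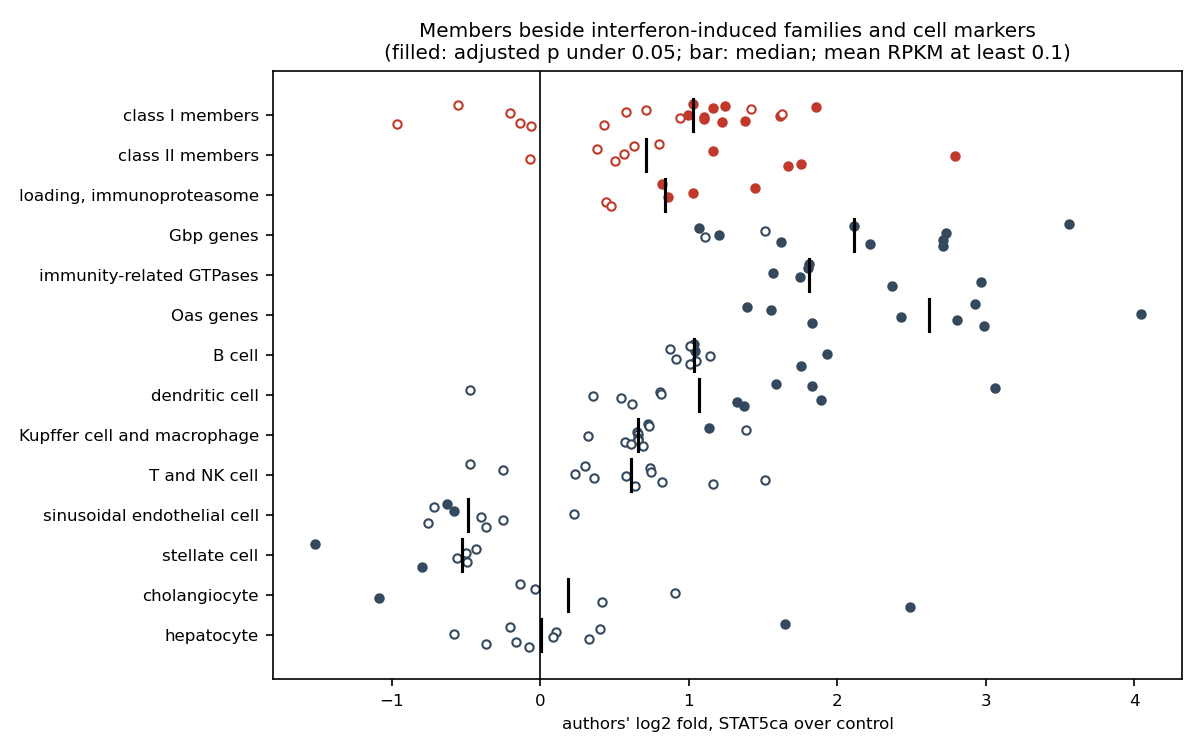
Each point is the authors' log2 fold of STAT5ca over control for a gene with a mean of at least 0.1 RPKM, filled where the adjusted p was under 0.05, with a bar at the median of each list. Class I members have a median of 1.03 and class II members one of 0.71, between the hepatocyte markers at 0.00 and the Gbp genes at 2.11.

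The members were then set beside the genes among which they lie. Of the members, 47 are on chromosome 17 and 5 elsewhere, and the H2 rows span 3.49 Mb (34132958 to 37620499, mm9). The 151 other named genes in this stretch gave 7 higher and 8 lower, with a median log2 fold of -0.04 over the 103 with a mean of at least 0.1 RPKM. Of the neighbours 4.64% were thus higher, against 3.87% of all named genes, and 5.30% were lower, against 1.92% of all named genes, with no test of either difference. The neighbours that rose included Ltb, the lymphotoxin beta gene (2.02-fold), Aif1, a macrophage gene (2.05-fold), and Ddr1 (5.42-fold), in the authors' deposited table. Also higher were Lst1 (2.72-fold), D17H6S56E-5 (3.01-fold) and the faint genes Mpig6b (7.55-fold) and Ubd (7.02-fold). Ubd, which encodes the ubiquitin-like protein FAT10, was at 0.764 RPKM in STAT5ca and 0.0970 RPKM in control livers. Those that fell included C4a, a complement gene (3.89-fold lower, 58.0 RPKM in STAT5ca and 214 RPKM in control livers in the authors' deposited table). H2-Ke6, the steroid dehydrogenase gene, stood at 97.4 RPKM in STAT5ca and 121 RPKM in control livers (authors' deposited table, 1.31-fold lower with adjusted p = 0.255).

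**Figure D3:**
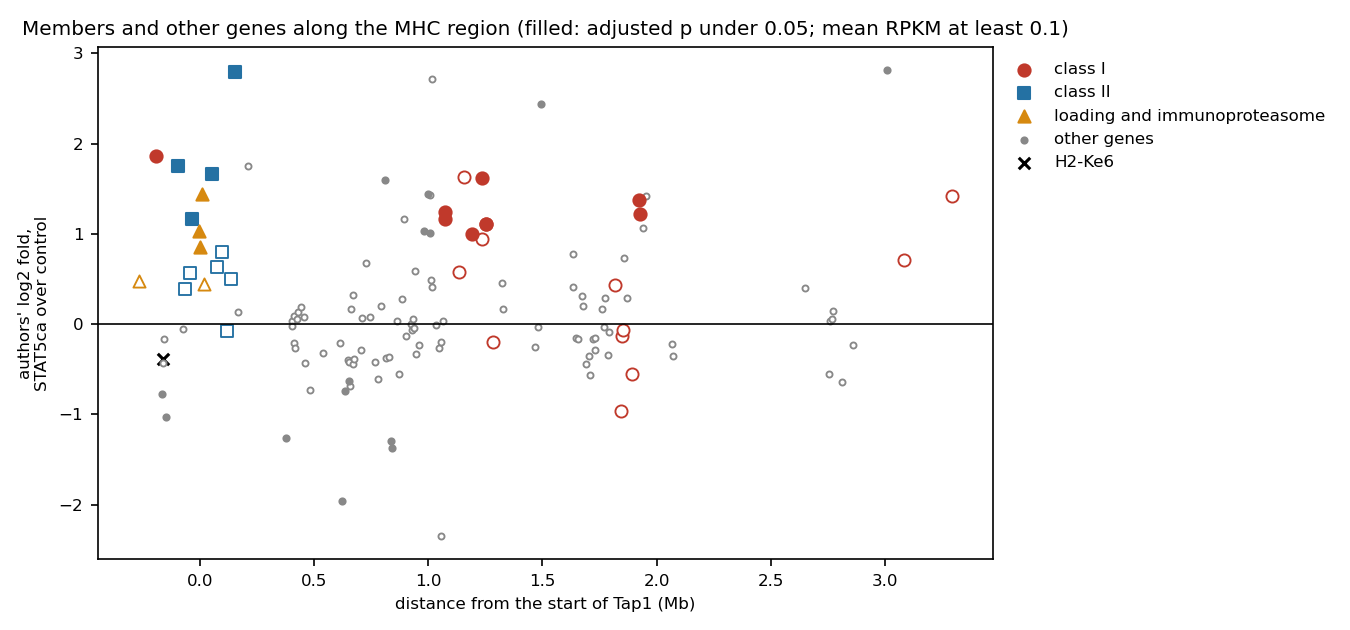
The authors' log2 fold of STAT5ca over control is plotted against the distance of each row from the start of Tap1, in Mb, for genes with a mean of at least 0.1 RPKM (filled, adjusted p under 0.05). The class II genes cluster near Tap1, the class I genes lie mostly farther along the chromosome, and the other genes of the stretch have a median of -0.04.

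The 149 noncoding features annotated in the same stretch gave 3 higher and 4 lower, beside 1.47% higher and 1.25% lower of all lncRNA features.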

How the data were processed

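Polyadenylated nuclear RNA of liver was sequenced in 9 libraries. The submitters' processing notes name STAR, featureCounts, edgeR and the mm9 build, with no versions. The authors deposited RPKM values per group on collapsed exons, per the file headers, a fold change with a sign (a score, positive for STAT5ca over control) and an adjusted p-value under an edgeR heading. The adjustment, the covariates and the use of strand in counting are not stated in the sources used here. The labels do not say that each library is a separate mouse, so p-values measure only the spread between these samples, which may be technical.

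The count models planned for single libraries could not be used, since the table holds 1 value per group, and the authors' adjusted p with a threshold of 0.05 took their place. Starts in the table count from 0, and 1 was added. Library totals came from lncRNA features of 1 interval on which 1 library had 1 read. Whole reads of H2-Q2 were sought within a relative tolerance of 3e-08, and lengths 1 to 3 bases off gave 0 solutions. Both steps were tested on simulated data. Raw p-values were recovered as upper bounds, taking the adjustment as Benjamini-Hochberg over 75794 features. Analyses used Python 3.11.15, numpy 2.4.6 and pandas 2.3.3. Named were all members with at least 1 RPKM in either group or past the threshold, and chosen regulators. The members and lists were chosen with earlier results of these data known. March1, March8 and Emr1 were matched by newer symbols. Depth limits faint members: 1 read on 1 kb in 1 library was worth 0.0135 to 0.0169 RPKM of a STAT5ca value and 0.0190 to 0.0263 RPKM of a control value.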

Additional observations from a re-analysis of the deposited data

How the results depend on the processing

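Of the 18 members called, a p threshold of 0.01 left 14 (H2-L, H2-Q7, H2-Q9 and Psmb9 were lost) and a fold of at least 2 left 15, whereas adjusting p anew above 0.1 RPKM gave 20 and added H2-M3 and Nlrc5. Without the H2-Q and H2-T genes 4 class I members were called in place of 10. With a fold of at least 2, 2 loading and immunoproteasome members were called in place of 4. With p adjusted anew, 1 regulator (Nlrc5) was called in place of 0. The class II count of 4 held under these settings, and without H2-Ea it was 3, an alternative chosen after seeing the data. The median log2 fold of class I (1.03) was 1.08, 1.08 and 0.97 from RPKM ratios with a pseudocount of 0.01, 0.1 and 1, 1.04 after scaling to equal totals, 0.99 at a mean of at least 1 RPKM, 0.83 with no minimum level and 1.17 without the H2-Q and H2-T genes. The class II median (0.71) was 0.80, 0.79 and 0.71 with the 3 pseudocounts, 0.75 after scaling, 0.80 at a mean of at least 1 RPKM and 0.63 without H2-Ea. Their difference (0.31) was 0.28, 0.29 and 0.25 with the pseudocounts, 0.29 after scaling, 0.20 at a mean of at least 1 RPKM, 0.11 with no minimum level and 0.45 without the H2-Q and H2-T genes. Counting each locus once, also chosen after seeing the data, left 16 members called. H2-Eb1, not called, turned from a log2 fold of -0.07 to 0.03 by RPKM ratio. The cause of these shifts was not tested.

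No paired analysis was possible because the table holds 1 value per group. For the same reason leaving out single libraries and DESeq2 were not run. Depth limits the members under 0.1 RPKM.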

Other observations

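Noncoding features in the H2 stretch of chromosome 17 were mostly faint. An intergenic feature between H2-Q2 and H2-Q4 (chromosome 17, 35490794 to 35492100, mm9) was at 1.30 RPKM in STAT5ca and 0.121 RPKM in control livers (authors' deposited table, 9.96-fold higher with adjusted p = 3.33e-07). An intragenic feature annotated with H2-Q5 was at 1.27 RPKM in STAT5ca and 0.237 RPKM in control livers (authors' deposited table, 5.06-fold higher with adjusted p = 0.00536). Its 3 intervals lie between 35527562 and 35604740, a stretch that also spans the H2-Q6 and H2-Q7 rows. An intragenic feature annotated with C4a fell to 11.8 RPKM in STAT5ca livers, against 41.5 RPKM in control livers (authors' deposited table, 3.70-fold lower with adjusted p = 7.14e-05). Its 4 intervals lie between 34867078 and 34947977, mostly before the C4a row, which starts at 34946038. These features were chosen after their values were seen. Since the use of strand in counting is not given, reads of a feature inside a gene and reads of that gene cannot be told apart.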
